A study of Saccharomyces cerevisiae with 4 samples.

Results

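The Hsp70 and ribosome-associated chaperone genes of the budding yeast Saccharomyces cerevisiae were examined in a strain labelled GCN2c set against wild type. The 10 genes were taken by open reading frame name from a table of 6211 open reading frames: SSA1 (YAL005C), SSA2 (YLL024C), SSA3 (YBL075C), SSA4 (YER103W), SSB1 (YDL229W), SSB2 (YNL209W), SSE1 (YPL106C), SSE2 (YBR169C), SSZ1 (YHR064C) and ZUO1 (YGR285C). No cut-off on the values defined the 10, although earlier results of these data were known when they were chosen. RNA of the strain labelled GCN2c and RNA of wild type were hybridised together on each of 4 arrays carrying 1 value per open reading frame. Both strains were grown in YPD, a rich medium, at 28 °C and harvested in log phase at an absorbance of 0.6. The design text speaks of GCN2c overexpression and the sample labels of a mutant, and neither names the allele, the promoter or the strain background. GCN2 encodes the kinase that phosphorylates the initiation factor eIF2. The dye carrying GCN2c RNA was Cy5 for replicates 1 and 3, whereas replicates 2 and 4 carried it in Cy3.

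Hsp70 proteins bind exposed hydrophobic stretches of unfolded chains and release them in a cycle of ATP hydrolysis, which J-proteins stimulate, and of nucleotide exchange, which exchange factors drive. The SSA proteins are the general Hsp70s of the yeast cytosol: SSA1 and SSA2 are abundant in growing cells, and SSA3 and SSA4 are induced by heat and other stress. The SSB proteins sit at the ribosome and take up nascent chains, assisted by the ribosome-associated complex of the Hsp70-like protein Ssz1 and the J-protein Zuo1, while SSE1 and SSE2 encode Hsp110 exchange factors. SSA1 and SSA2, and likewise SSB1 and SSB2, are copies of near-identical sequence, so that their spots can share signal, which was not measured here.

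The ratios below put GCN2c on top of wild type on a log2 scale. Neither choice is stated in the labels, and if all arrays ran the other way, higher and lower would change places throughout. The 4 arrays held 6057 to 6177 values with medians between -0.09 and -0.03. Replicates 2 and 4 differed by an SD of 0.0638 over genes, against 0.852 between replicates 1 and 3, so they were averaged and counted as 1 sample, and n = 3. The design text calls the arrays biological replicates without naming separate cultures, so the p-values measure the spread between these samples, which may be technical. Whether the dye-swapped ratios had been turned before deposit is not stated. As deposited, the correlation of replicate 2 across genes was 0.183 (replicate 1) and 0.294 (replicate 3), that of replicates 1 and 3 was 0.449, and all arrays were used unturned. On the mean of replicates 2 and 4 the mating type alpha markers STE3, MF(ALPHA)1, MF(ALPHA)2 and SAG1 stood at 3.76, 4.93, 1.69 and 0.07. On replicates 1 and 3 they lay between -1.42 and 0.17, with no value for STE3 on replicate 3. The 5 mating type a markers lay between -1.11 and -0.28 on the mean of replicates 2 and 4, and between -1.55 and 0.17 on replicates 1 and 3. The part of this difference between hybridisations in the chaperone values was not tested. GCN2 itself averaged -0.33 ± 0.39 (SD over 3 replicates; adjusted p = 0.453 in limma), with replicates at -0.39, 0.10 and -0.68. GCN4, the activator downstream of the kinase, averaged 0.59 ± 0.23 (adjusted p = 0.18).

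All 10 chaperone genes had a value on all 4 arrays and were tested. SSB1 rose in the strain labelled GCN2c and was the 1 gene of the 10 past the threshold, an adjusted p under 0.05 in limma over 6130 genes, of which 2.06% passed. The most abundant cytosolic Hsp70 genes, SSA1 and SSA2, and the second ribosomal Hsp70 gene, SSB2, lay between -1.27 and -0.73 on every replicate. SSA1 and SSA2 were just short of the threshold (limma adjusted p = 0.0528 and 0.0589) and SSB2 further from it (0.0858). The stress-induced SSA3 and SSA4 showed no common sign across replicates. The exchange factor genes SSE1 and SSE2 stood on opposite sides of 0.

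Of the 10 genes 1 rose and 0 fell by limma, while a one-class SAM-type statistic, the kind of test named in the design text, gave 1 higher and 3 lower. Among all genes tested 1.73% rose and 0.326% fell by limma, and by the SAM-type statistic 3.03% of the genes with 3 values were higher and 1.35% lower. An unadjusted p under 0.05 was reached by 7 of the 10, against 20.7% of all genes, and 7 of the 10 had 1 sign on all 3 replicates, against 46.6% of the genes with 3 values. A mean below 0 was found for 6 of the 10, against 55.9% of all genes. The median of the 10 means was -0.47, and that of all genes -0.06. By replicate the median of the 10 was -0.37 on replicate 1, -0.20 on replicate 3 and -0.69 on the mean of replicates 2 and 4, while the median of all genes was -0.03, -0.05 and -0.09. The members were chosen with earlier results of these data known, so no test was made over the list.

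**Figure D1:**
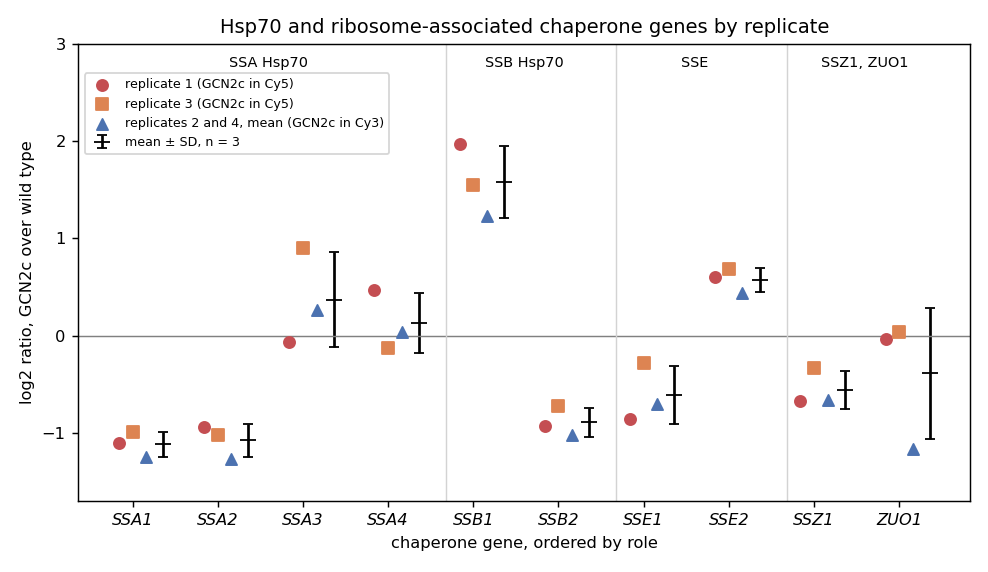
Log2 ratio of GCN2c over wild type (vertical axis) for the 10 chaperone genes, ordered by role, with 1 point for replicate 1, replicate 3 and the mean of replicates 2 and 4, and the mean with its SD (n = 3) beside them. SSB1 lies between 1.23 and 1.97 on every replicate and its copy SSB2 between -1.02 and -0.73, while ZUO1 is near 0 on replicates 1 and 3 and at -1.16 on replicates 2 and 4.

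SSB1, which encodes an Hsp70 that binds nascent chains at the ribosome, had log2 ratios of 1.97 on replicate 1, 1.55 on replicate 3 and 1.23 on both replicates 2 and 4. All replicates were clearly above 0, and the value lay at the percentile 98.8 of the genes on replicate 1, 97.5 on replicate 3 and 94.2 on the mean of replicates 2 and 4. The mean was 1.58 ± 0.37 (SD, n = 3; 95% interval 1.04 to 2.12; limma adjusted p = 0.0361), 2.99-fold higher in the strain labelled GCN2c. It ranked 106 from the highest among the 6130 genes. The SSB1 call held in 11 of 14 limma alternatives, with adjusted p from 0.0101 to 0.921. The lowest came with the 4 columns taken as 4 replicates, which counts the near-identical arrays 2 and 4 as separate samples. The call was lost without replicate 3 (adjusted p = 0.0666) and with arrays scaled to a common spread (adjusted p = 0.0502). It was also lost with the sign of replicates 2 and 4 turned (adjusted p = 0.921), where the SSB1 ratio was 0.76.

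SSB2 encodes the near-identical second copy of that Hsp70. Its log2 ratios were -0.93 on replicate 1, -0.73 on replicate 3, and -1.03 and -1.02 on replicates 2 and 4. Every SSB2 value was below 0, so the copies took opposite signs on every array. The SSB2 mean was -0.89 ± 0.15 (SD, n = 3; 95% interval -1.35 to -0.44) with a limma adjusted p of 0.0858, which does not pass. SSB2 passed with a dye term in the fit (adjusted p = 0.0354). It also passed with the 4 columns taken as 4 replicates (adjusted p = 0.0108), which counts the near-identical arrays 2 and 4 as separate samples. The limma adjusted p ranged from 0.0108 to 0.962 over 14 alternatives. By the SAM-type statistic SSB2 was lower (q = 0.033).

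The difference between the copies, SSB1 minus SSB2, was 2.90 on replicate 1, 2.27 on replicate 3 and 2.25 on the mean of replicates 2 and 4, a mean of 2.47 ± 0.37 (SD, n = 3). It was several times its own spread, although an exact sign-flip test on 3 replicates cannot go below 0.25 and the pair was singled out after its values were seen. For scale, the 52 ribosomal protein genes that exist as A and B copies were set against each other in the same way, a comparison also chosen after the values were seen. The absolute difference of mean log2 ratios within these 52 had a median of 0.16 and a maximum of 0.90, for RPS10A at -1.09 and RPS10B at -1.99. The RPS10A and RPS10B difference changed sign between replicates (SD 1.96). All 132 ribosomal protein genes had means below 0, so no A and B copies could have means of opposite sign. As deposited, the mean difference of SSB1 and SSB2 lay beyond all 52, although on replicate 3 RPS10A and RPS10B differed by more (2.77). With replicates 2 and 4 turned, SSB1 minus SSB2 was 0.97 and RPS10A minus RPS10B was 1.65, so that place rests on the reading of those arrays. Signal shared between the spots of copies would bring their ratios together. It was not measured for SSB1 and SSB2 or for the ribosomal pairs.

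**Figure D2:**
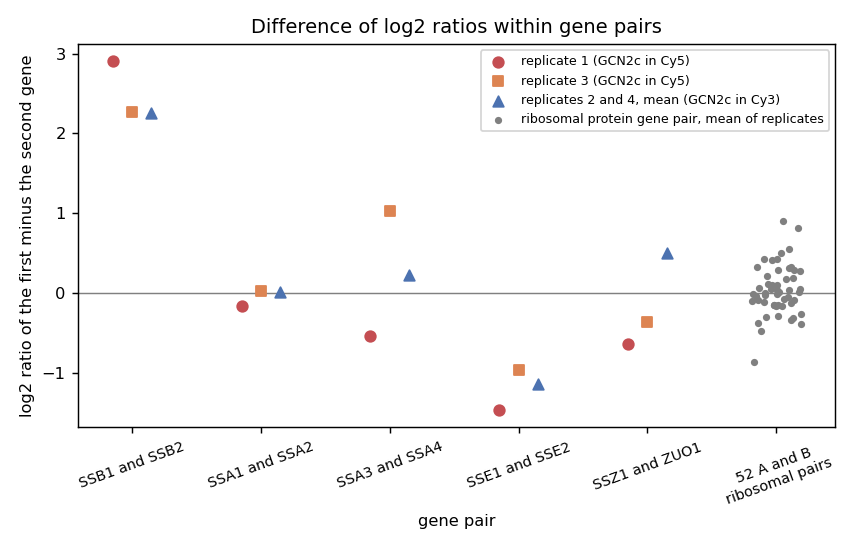
Difference of log2 ratios, GCN2c over wild type, between the first and the second gene of a pair (vertical axis), with 1 point for each replicate of 5 chaperone gene pairs and, at the right, 1 grey point for the replicate mean of each of 52 ribosomal protein copy pairs. SSB1 minus SSB2 lies between 2.25 and 2.90, SSA1 minus SSA2 between -0.17 and 0.03, and no ribosomal pair mean is beyond 0.90, all with the arrays as deposited.

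The genes next to the 10 on the chromosomes, by the order of protein-coding genes in the yeast R64 gene table, were also described. All 20 neighbours were tested, with a median of -0.06. Limma passed 2.06% of all genes and 1 of the 20. That gene was YNL208W, next to SSB2, at 2.09 on replicate 1, 2.05 on replicate 3 and 1.48 on the mean of replicates 2 and 4. YNL208W rose by 1.87 ± 0.34 (SD, n = 3; limma adjusted p = 0.0228), high on every replicate, as SSB1 was and SSB2 was not. It passed in 13 of 14 limma alternatives (adjusted p from 0.00668, with the 4 columns as 4 replicates, to 0.921). It missed with replicates 2 and 4 turned, at 0.89. MER1, on the other side of SSB2, stood at 0.09. The neighbours of SSB1, PTP1 and HO, stood at -0.24 and 0.10, against 1.58 for SSB1. Whether position bears on any of these ratios was not tested. Next to SSA1, EFB1, which encodes a translation elongation factor subunit, stood at -0.79 (adjusted p = 0.105).

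SSA1 encodes one of the main cytosolic Hsp70s. Its log2 ratios were -1.11 on replicate 1, -0.99 on replicate 3 and -1.25 on both replicates 2 and 4. SSA2, its near-identical copy, had -0.94 on replicate 1, -1.02 on replicate 3 and -1.27 on both replicates 2 and 4. Both genes were low on every array, at or below the percentile 5.16 of the genes in each replicate. The SSA1 mean was -1.12 ± 0.13 (SD, n = 3; 95% interval -1.56 to -0.67; limma adjusted p = 0.0528) and the SSA2 mean -1.08 ± 0.17 (95% interval -1.53 to -0.62; adjusted p = 0.0589). In fold terms this is 0.461 and 0.474 of wild type. The log2 ratios with replicates 2 and 4 turned were -0.28 for SSA1 and -0.23 for SSA2. Neither passes the threshold, and their intervals lie wholly below 0.

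SSA1 and SSA2 differed by -0.17 on replicate 1, 0.03 on replicate 3 and 0.02 on the mean of replicates 2 and 4, a mean difference of -0.04 ± 0.11 (SD, n = 3). Their ratios were not distinguishable beyond that spread, and signal shared between the spots would itself bring them together. Their calls turned on the setting. Without replicates 2 and 4, SSA1 had an adjusted p of 0.0404 and SSA2 of 0.0457, and with a dye term 0.0223 and 0.0234. Over 14 limma alternatives SSA1 passed in 6 (adjusted p from 0.00652 to 0.959) and SSA2 in 5 (0.0077 to 0.964). The lowest p of SSA1 and of SSA2 came with the 4 columns taken as 4 replicates. By the SAM-type statistic both were lower (q = 0.0234 for SSA1 and 0.0257 for SSA2).

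SSA3 and SSA4 are the Hsp70 genes that heat shock and other stress induce. SSA3 had log2 ratios of -0.06 on replicate 1, 0.90 on replicate 3 and 0.26 and 0.27 on replicates 2 and 4. SSA4 had 0.47 on replicate 1, -0.12 on replicate 3 and 0.04 on both replicates 2 and 4. Each gene had its highest value on a different array, and neither kept 1 sign. The SSA3 mean was 0.37 ± 0.49 (SD, n = 3; 95% interval -0.24 to 0.98; limma adjusted p = 0.443) and the SSA4 mean 0.13 ± 0.31 (95% interval -0.38 to 0.64; adjusted p = 0.763). The intervals allow a rise of up to 0.98 in SSA3 and 0.64 in SSA4. They also allow a fall, to -0.24 in SSA3 and -0.38 in SSA4. SSA1 stood below SSA4 on every replicate, as did SSA2.

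SSE1 encodes the main Hsp110 of growing yeast, an exchange factor for the SSA and SSB proteins. Its log2 ratios were -0.86 on replicate 1, -0.28 on replicate 3, and -0.71 and -0.70 on replicates 2 and 4. SSE2, the stress-induced copy, had 0.61, 0.68, 0.44 and 0.44 on replicates 1, 3, 2 and 4. The 2 genes did not overlap on any array, SSE1 being below 0 and SSE2 above it throughout. The SSE1 mean was -0.62 ± 0.30 (SD, n = 3; 95% interval -1.12 to -0.11; limma adjusted p = 0.184) and the SSE2 mean 0.58 ± 0.12 (95% interval 0.13 to 1.02; adjusted p = 0.17). Neither passed. The difference, SSE1 minus SSE2, was -1.19 ± 0.25, with -1.47 on replicate 1, -0.96 on replicate 3 and -1.15 on the mean of replicates 2 and 4, and was -0.43 with replicates 2 and 4 turned.

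The ribosome-associated complex works with Ssb at the ribosome exit site. SSZ1, its Hsp70-like subunit, had log2 ratios of -0.68 on replicate 1, -0.33 on replicate 3 and -0.67 on both replicates 2 and 4, with a mean of -0.56 ± 0.20 (SD, n = 3; 95% interval -1.02 to -0.09; limma adjusted p = 0.187). ZUO1, its J-protein subunit, had -0.03 on replicate 1, 0.03 on replicate 3 and -1.17 and -1.16 on replicates 2 and 4. SSZ1 was thus below 0 on every array, whereas ZUO1 was low solely where GCN2c was in Cy3. The ZUO1 mean was -0.39 ± 0.67 (95% interval -1.12 to 0.35; adjusted p = 0.496), and without replicates 2 and 4 it was 0.001 (adjusted p = 0.997, in a range of 0.072 to 0.997 over 14 alternatives). Dye orientation and hybridisation cannot be told apart for the value on replicates 2 and 4. Of the mating type alpha markers above, STE3, MF(ALPHA)1 and MF(ALPHA)2 also stood apart on that hybridisation, and SAG1 did not.

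The mean of replicates 1 and 3 minus the value on replicates 2 and 4 was 1.16 for ZUO1, 0.53 for SSB1 and between 0.13 and 0.29 for the other 8 genes. All 10 values were lower where GCN2c was in Cy3, as were those of 58.5% of all genes with 3 values. The ZUO1 gap was the largest of the 10, and for the other 9 genes the means of the dye orientations had the same sign.

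**Figure D3:**
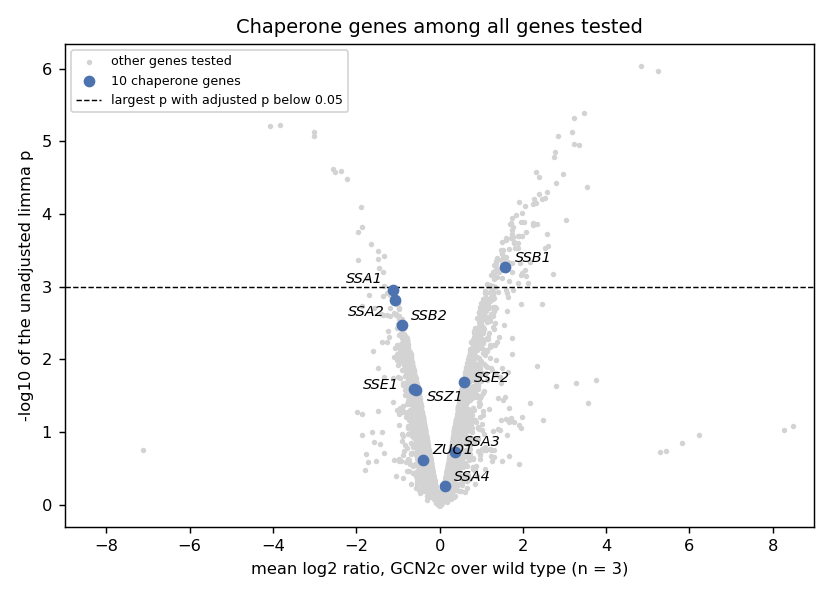
Mean log2 ratio of GCN2c over wild type (horizontal axis, n = 3) against -log10 of the unadjusted limma p (vertical axis) for 6130 genes, with the 10 chaperone genes in blue and the dashed line at the largest p that passes after adjustment. SSB1 lies above the line at 1.58, and SSA1 and SSA2 lie just under it at -1.12 and -1.08.

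With the arrays as deposited, the order from the highest mean to the lowest was SSB1, SSE2, SSA3, SSA4, ZUO1, SSZ1, SSE1, SSB2, SSA2 and SSA1. SSB1 stood 1.00 ± 0.31 (SD, n = 3) above the next gene, SSE2, and above it on 3 of 3 replicates. From SSE2 down to SSE1 each gene exceeded the next on 2 of 3 replicates, with mean differences of 0.06 to 0.52 that did not exceed their SD. SSE1 stood 0.28 ± 0.19 above SSB2 and SSB2 0.18 ± 0.15 above SSA2, both on 3 of 3 replicates, and SSA1 and SSA2 held the end of the order together. With replicates 2 and 4 turned, ZUO1 moved to the place after SSB1, at 0.39 against 0.76, and the other 8 genes followed in the same order as before.

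Partners of Hsp70 were described from lists of genes written with earlier results in view. For scale, 2.06% of all genes passed limma, 20.7% had an unadjusted p under 0.05 and 55.9% a mean below 0. By the SAM-type statistic 3.03% of the genes with 3 values were higher and 1.35% lower. Of 14 cytosolic J-protein and exchange factor genes 13 were tested and 0 passed limma (2 at an unadjusted p under 0.05, and 0 by the SAM-type statistic), with 9 means below 0 and a median of -0.10. The J-protein gene SIS1 averaged -0.55 ± 0.10 (SD, n = 3; adjusted p = 0.179 by limma) and FES1, an exchange factor for Ssa, at -0.72 ± 0.25 (adjusted p = 0.14), both below 0 on every replicate. YDJ1, the most abundant cytosolic J-protein gene, had values on 2 arrays alone, -2.81 on replicate 1 and 1.39 on replicate 3, and was not tested. Hsp70 genes of the endoplasmic reticulum and mitochondria and their partners numbered 11, with 0 past limma (3 at an unadjusted p under 0.05, and 0 by the SAM-type statistic) and a median of -0.18. Among them SSC1, the mitochondrial Hsp70 gene, stood at -0.66 ± 0.14 (adjusted p = 0.144), and MGE1, its exchange factor gene, at -0.68 ± 0.23 (adjusted p = 0.148).

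Other chaperones that meet new chains mostly had means below 0, as did 55.9% of all genes. An unadjusted p under 0.05 was reached by 20.7% of all genes. The nascent polypeptide-associated complex, which binds chains at the ribosome exit beside Ssb, had 0 of 3 genes past limma (2 at an unadjusted p under 0.05, and 0 by the SAM-type statistic). Its beta subunit gene EGD1 averaged -0.71 ± 0.18 (SD, n = 3; adjusted p = 0.131 by limma), the alternative beta subunit gene BTT1 at -0.72 ± 0.43 (adjusted p = 0.178) and the alpha subunit gene EGD2 at -0.20 ± 0.29 (adjusted p = 0.609). With replicates 2 and 4 turned, EGD2 and BTT1 changed sign, to 0.14 and 0.08. All 14 genes of the chaperonin CCT, which folds actin and tubulin, and of its partner prefoldin had a mean below 0, with a median of -0.50 (-0.09 with replicates 2 and 4 turned) and 9 of them below 0 on every replicate. None of the 14 passed limma (7 at an unadjusted p under 0.05, and 1 lower by the SAM-type statistic). Of the 5997 genes with 3 values 1684 were below 0 on every replicate and 1.35% were lower by that statistic. CCT5 stood at -0.70 ± 0.08 (adjusted p = 0.123) and the prefoldin gene PAC10 at -0.70 ± 0.36 (adjusted p = 0.17).

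Heat shock genes other than the 10, targets of the heat shock factor Hsf1, numbered 14, with a median of -0.41 (-0.06 with replicates 2 and 4 turned) and 12 means below 0. Limma passed 0 of the 14 (7 at an unadjusted p under 0.05), and the SAM-type statistic gave 1 lower. Among all genes 55.9% had a mean below 0 and 20.7% an unadjusted p under 0.05. By the SAM-type statistic 1.35% of the genes with 3 values were lower. HSC82, the constitutive Hsp90 gene, averaged -0.98 ± 0.35 (SD, n = 3; adjusted p = 0.101 by limma) and BTN2, which sorts misfolded proteins, at -0.96 ± 0.18 (adjusted p = 0.0763). Those log2 ratios lay close to that of SSB2 and a little above those of SSA1 and SSA2. The general stress genes, targets of Msn2 and Msn4, lay mostly above 0, with a median of 0.60 (0.21 with replicates 2 and 4 turned) over 11 genes tested, 9 of them above 0 on every replicate. Limma passed 0 of the 11 (7 at an unadjusted p under 0.05), and the SAM-type statistic gave 2 higher. Of the 5997 genes with 3 values 1110 were above 0 on every replicate and 3.03% were higher by that statistic. YGP1, a secreted glycoprotein gene, stood at 1.09 ± 0.12 (adjusted p = 0.0536) and HSP31, a stress-induced chaperone and methylglyoxalase gene, at 0.82 ± 0.24 (adjusted p = 0.11). SSE2, at 0.58, lay near the median of this list, and SSA3 and SSA4 below it.

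The regulators of these genes showed no common shift. HSF1, which encodes the heat shock factor, averaged 0.26 ± 0.49 (SD, n = 3; adjusted p = 0.591 by limma). MSN2 and MSN4, which encode the general stress activators, stood at -0.10 ± 0.47 (adjusted p = 0.853) and -0.37 ± 0.42 (adjusted p = 0.409). None of the 3 kept 1 sign on all replicates, none reached an unadjusted p under 0.05, and none passed the SAM-type statistic.

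Since Ssb, Ssz1 and Zuo1 work on the ribosome, their values were set beside the 132 ribosomal protein genes. All 132 means were below 0, with a median of -0.66, and by replicate it was -0.40 on replicate 1, -0.48 on replicate 3 and -1.03 on the mean of replicates 2 and 4. None passed limma (84 at an unadjusted p under 0.05, and 14 lower by the SAM-type statistic), with RPL9A at -1.18 (adjusted p = 0.0653) and RPS10A at -1.09 (adjusted p = 0.071). Among all genes 55.9% had a mean below 0 and 20.7% an unadjusted p under 0.05. By the SAM-type statistic 1.35% of the genes with 3 values were lower. SSB2, at -0.89, and SSZ1, at -0.56, lay on either side of that median. SSB1, at 1.58, lay above the highest ribosomal protein gene, which stood at -0.03. With replicates 2 and 4 turned, the ribosomal protein median was 0.04, and without them it was -0.45. The value over all replicates thus rests on the reading of those arrays, while the medians of replicates 1 and 3 do not.

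**Figure D4:**
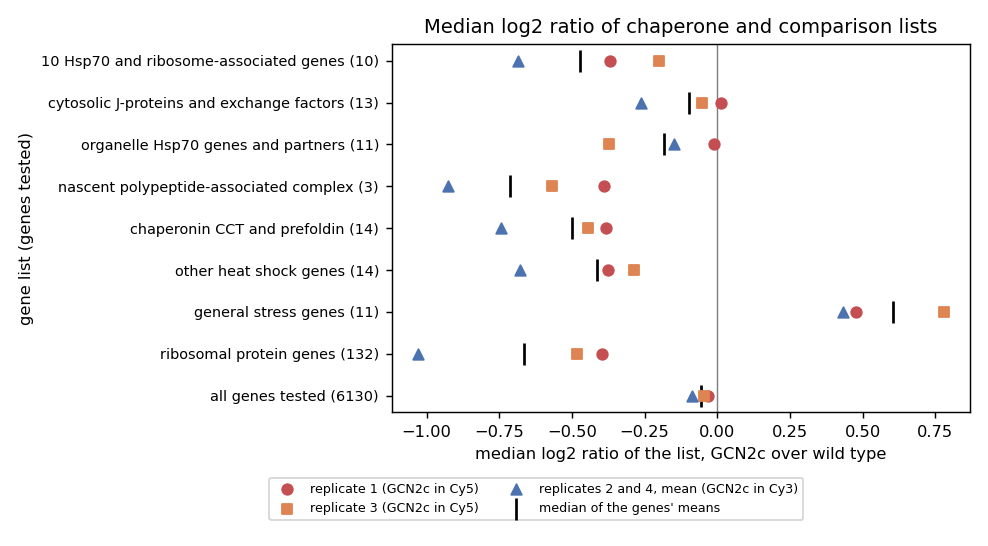
Median log2 ratio of GCN2c over wild type (horizontal axis) for the 10 chaperone genes, 7 comparison lists and all genes tested, with 1 point for each replicate and a black bar at the median of the genes' means. The medians by replicate of the 10 genes lie between -0.69 and -0.20, those of the general stress genes between 0.43 and 0.78, and those of all genes between -0.09 and -0.03.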

How the data were processed

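The authors deposited log ratios for 4 arrays of 2 colours, 1 value for each open reading frame. These deposited values were read as log2, an assumption. Per the labels' protocols, 30 µg of total RNA from 50 mL cultures was copied into amino-allyl cDNA, and the authors flagged defective spots and spots whose signal was not above 2 times local background in both channels. The sources used here name no scanner, normalization, direction or log base. The number of arrays limits the precision. No centring was applied. Of 6211 names 5662 matched a symbol of the yeast R64 gene table. Positions in that table served only to order genes for the neighbours, and no sequences were used.

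Replicates 2 and 4 agreed within 0.01 of a constant difference for 97.46% of 6136 genes and were averaged, as the rule for the genes asks. Each of 6130 genes with a value on at least 3 arrays was tested against 0 (two-sided) with limma 3.58.1 in R 4.3.3 and adjusted by Benjamini-Hochberg. Genes with all values left 2 residual degrees of freedom, to which empirical Bayes brought 3.37. The SAM-type statistic used all sign flips and the median standard error as its constant. The fits were tested on simulated data. In other lists, the genes named are those past the threshold, otherwise the 2 with the largest mean of 1 sign, and every gene of lists of 3 or fewer. The genes and lists were chosen with earlier results of these data known. DDR2, a general stress gene of the lists, was not analysed here.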

Additional observations from a re-analysis of the deposited data

How the results depend on the processing

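Over 15 alternatives, the 150 values of the 10 chaperone genes kept direction and side of the threshold in 125. They gained a call in 19, lost one in 3 and changed sign in 3. SSB1 is the gene that lost its call, as given above. Leaving out replicate 2 or 4 alone keeps its near-identical partner. Those settings left all 10 genes unchanged and are no separate check of stability. Taking 4 columns as 4 replicates counts these near-identical arrays as separate samples. The count of chaperone genes past the threshold, 1 as reported, was 1 without replicate 1 and 0 without replicate 3. Without replicate 2 or 4 alone that count stayed at 1. It was 3 without both replicates 2 and 4, 7 with 4 columns as 4 replicates and 4 with a dye term. With replicates 2 and 4 turned it was 0 (0 at an unadjusted p under 0.05), and after scaling 0 (7 unadjusted). It was 3 over genes on all 4 arrays, 2 with values beyond 16 removed, 3 with robust empirical Bayes and 4 by the SAM-type statistic. The count over all genes, 126 as reported, was 74 without replicate 3 and 148 without replicate 1. It was 353 without replicates 2 and 4, 1062 with 4 columns, 0 with replicates 2 and 4 turned (250 unadjusted), 590 with a dye term, 191 over genes on all 4 arrays, 201 with robust empirical Bayes and 263 by the SAM-type statistic. The median of the 10 genes, -0.47, was -0.0045 with replicates 2 and 4 turned.

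Sign changes, in genes not past the threshold as reported, were these. SSA4 ranged from -0.0427 (without replicate 1) to 0.26 when a replicate was left out. ZUO1 was 0.001 without replicates 2 and 4 and 0.39 with them turned, and MSN2 0.14 and 0.29. With replicates 2 and 4 turned, EGD2 was 0.14, BTT1 0.0842, PAC10 0.0123 and GCN2 0.13. For these the cause was not tested. Signal over background was not judged, since no intensities were used.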
